A study of Mus musculus with 6 samples.

Results

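The CpG islands (CGIs) described here lie in the first 30 Mb of mouse chromosome 5, the stretch that holds Abcb4, the gene disrupted in the Mdr2-KO mouse. They were chosen by position alone. Every CGI probe whose mm8 start falls in that stretch is a member, which gives 597 of the 88737 CGI probes on the array. No member probe was lost to an outlier spot. Of these probes, 559 form 96 CGIs of the 13822 CGIs tested, and the other 38 sit in runs too short to count. The files name no islands, so 3 or more consecutive probes were joined into a CGI where neighbouring starts lay within 500 bp, and their mean is its value. The rest of chromosome 5 holds 827 CGIs. Distances are given from 9 Mb, a reference point for the neighbourhood of Abcb4, and 12 of the 96 CGIs lie within 1 Mb of it, 9 between 1 and 5 Mb, 10 between 5 and 10 Mb and 65 farther away.

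The males were 12 months old, 3 of each genotype (Mdr2-KO and Mdr2-/+), and each liver was hybridised to its own array. The Mdr2-KO line (FVB.129P2-Abcb4tm1Bor) carries a targeted Abcb4 allele of 129P2 origin on an FVB background and is homozygous for it. The Mdr2-/+ controls came from a cross of that line with FVB/NJ, so they carry the same allele in a single copy, and no group lacks it. How much 129P2 DNA flanks the allele is not given in the sources used here. Whole liver was used, so hepatocytes, bile duct cells and immune cells all contributed DNA in proportions that were not measured.

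Abcb4 (Mdr2) is the flippase of the canalicular membrane of hepatocytes that brings phosphatidylcholine into bile. Without it, bile salts damage the bile ducts, and a chronic hepatitis develops that ends in liver tumours. CGIs are stretches rich in CpG that often cover gene starts and are mostly unmethylated there. In methylated DNA immunoprecipitation (MeDIP) an antibody against 5-methylcytosine enriches methylated fragments. The labels give Cy5 for the precipitated DNA and Cy3 for the input, the total DNA of the same liver. Each probe therefore gives an input signal, a MeDIP signal and their ratio, and the ratio can shift because either signal shifts. All 3 are given below as log2 values centred on the median of their array.

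In the gene order of GRCm38, Abcb4 is flanked by Rundc3b, Abcb1a and Abcb1b on one side and by Crot, Tmem243 and Dmtf1 on the other. Abcb1a and Abcb1b encode P-glycoproteins, drug transporters of the same family. Crot encodes a peroxisomal carnitine acyltransferase, and Dmtf1 encodes a transcription factor that binds cyclin D. The promoter of Abcb4 is shown because it is the start of the disrupted gene and because CpGs are what MeDIP reads. The sequence is from RefSeq (GRCm38.p6, plus strand, chr5:8893471-8893770), with each CG in capitals.

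Abcb4 promoter: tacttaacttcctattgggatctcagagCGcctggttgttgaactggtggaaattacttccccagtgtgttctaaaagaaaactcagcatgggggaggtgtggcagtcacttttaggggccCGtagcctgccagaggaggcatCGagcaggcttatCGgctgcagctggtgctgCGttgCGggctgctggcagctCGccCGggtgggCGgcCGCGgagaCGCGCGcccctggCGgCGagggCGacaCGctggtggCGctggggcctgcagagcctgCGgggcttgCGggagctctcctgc

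These 300 bases hold 21 CpGs, more than 75.2% of the 32851 mouse promoters of the same length in that table. By the same count, the promoters of Rundc3b, Abcb1a and Abcb1b hold 32, 2 and 12 CpGs, and those of Crot, Tmem243 and Dmtf1 hold 29, 36 and 36. The array positions are in another build (mm8), no mm8 annotation was used here, and no CGI below is therefore tied to any of these genes. In GRCm38 the lowest positions of the promoters of Abcb1b, Abcb4, Crot, Tmem243 and Dmtf1 are 8797897, 8893471, 8997097, 9100487 and 9161727. In mm8 the 6 CGIs nearest 9 Mb start at 8804225, 8899514, 8918662, 9002910, 9106425 and 9167573. Positions were not converted between the builds, so it was not determined whether a CGI lies inside Abcb4 or at its promoter.

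Depending on the array, 85.9% to 91.1% of the member probes had input signal well above background and 75.5% to 83.8% had such MeDIP signal, and no member spot was saturated. The 6 arrays lay on 3 slides, as the array barcodes show. The first replicates of the genotypes shared a slide, whereas each of the remaining slides held arrays of a single genotype, where the slide cannot be told apart from the genotype. Nothing gives the mice's litters, so p-values measure the spread between these livers and arrays, whose number limits the precision.

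Input DNA is not enriched for methylation, and its signal is the denominator of the ratio. At 95 of the 96 CGIs no input difference between the genotypes passed the test. The remaining CGI, chr5:8899514-8900127 (mm8, 3 probes, 100.5 kb below 9 Mb), had less input signal in every Mdr2-KO liver. Its centred log2 input signal was -1.41, -1.13 and -1.30 in Mdr2-/+ replicates 1 to 3 and -2.95, -3.06 and -2.73 in Mdr2-KO replicates 1 to 3. The groups were far apart, with a gap of more than 1 log2 unit between the lowest control and the highest mutant. The difference was -1.63 (standard error 0.10, adjusted p = 0.00937, limma with Benjamini-Hochberg adjustment over all CGIs). Of all 13822 CGIs on the array it was the single one called by input, a share of 0.00723%, and its difference was also the lowest on the array. The next lowest, -1.17 at a CGI on chromosome 1, had an adjusted p of 0.93.

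**Figure D1:**
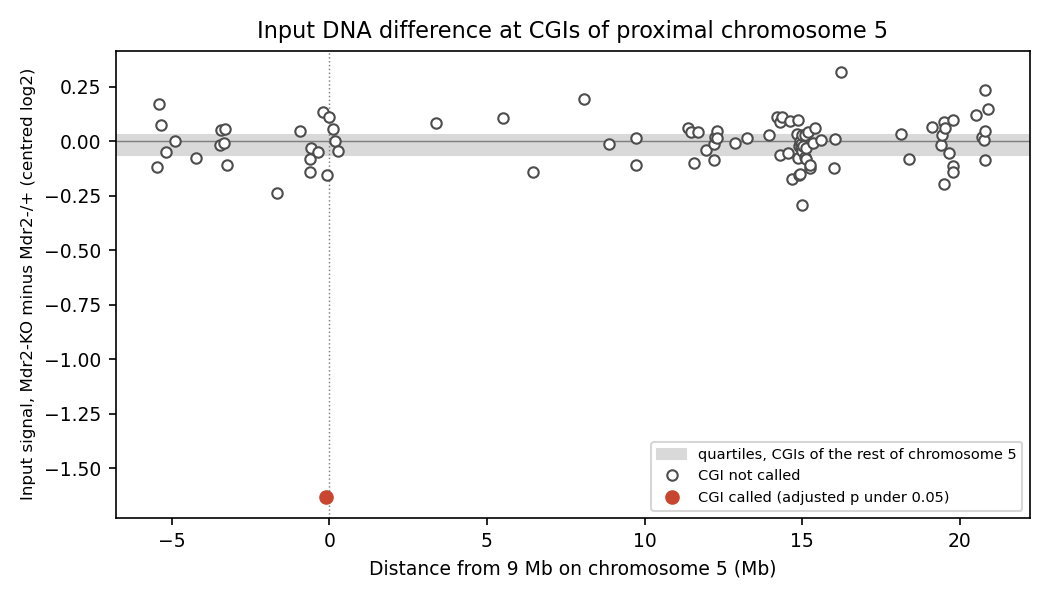
Input signal difference (Mdr2-KO minus Mdr2-/+, centred log2) of the 96 CGIs against their distance from 9 Mb on chromosome 5 (Mb). Each point is a CGI, the grey band spans the quartiles of the rest of chromosome 5, and the single called CGI stands at -1.63 while the others lie between -0.29 and 0.32.

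The MeDIP signal of the same CGI was also lower in Mdr2-KO livers. It was -0.71, -0.95 and -1.14 in Mdr2-/+ livers and -1.66, -1.51 and -1.55 in Mdr2-KO livers, again without overlap. It fell by 0.64 (standard error 0.14, adjusted p = 0.0465, limma). Lower MeDIP signal was called at this CGI alone among the 96, against 0.528% of all CGIs, and higher MeDIP signal at 1 of the 96, against 2.92%. Since the input fell more than the MeDIP signal, the ratio of the CGI rose. The ratio was 0.55, 0.04 and 0.05 in Mdr2-/+ livers and 1.23, 1.45 and 1.12 in Mdr2-KO livers. The difference of 1.06 (standard error 0.17, adjusted p = 0.0178, limma) counts as a gain of methylation when the ratio alone is read, although both signals behind it were lower.

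The difference was also present within the slide that held both genotypes. There the Mdr2-KO array minus the Mdr2-/+ array gave -1.53 in input, the lowest value of all 13822 CGIs for that pair, -0.95 in MeDIP signal and 0.69 in ratio. Arrays of the same genotype on a shared slide differed in input by -0.18 (Mdr2-/+ replicate 3 minus 2) and 0.33 (Mdr2-KO replicate 3 minus 2). With slide as a fixed block, the contrast is that same pair of arrays, and its adjusted p was 0.426 for input and 0.243 for the ratio.

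The 3 probes of this CGI all had lower input signals in Mdr2-KO livers but differed in brightness. The middle probe (A_68_P23470075, chr5:8899894-8899938) was well above background in both channels on every array. Its input signal, as processed by the scanner software, was 2204, 1859 and 2078 in Mdr2-/+ livers and 840, 858 and 954 in Mdr2-KO livers. The Mdr2-KO level was 38.3% of the Mdr2-/+ level after centring, a difference of -1.38 on the log2 scale (standard error 0.084). Its unadjusted p of 1.9e-06 ranked first of all 88646 probes, and its adjusted p was 0.168 (limma). Its MeDIP signal was 5039, 3362 and 3594 in Mdr2-/+ livers and 4001, 3863 and 3889 in Mdr2-KO livers. These MeDIP values overlapped, with a difference of -0.25 in centred log2 (adjusted p = 0.548, limma). Its ratio was 1.50, 1.06 and 0.96 against 2.45, 2.43 and 2.23, a rise of 1.20 (adjusted p = 0.0391, limma) that came with the lower input.

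The last probe (A_68_P23470076, chr5:8900083-8900127) had input signal well above background in every Mdr2-/+ liver and in no Mdr2-KO liver. Its input signal was 331, 571 and 671 in Mdr2-/+ livers and 165, 88.5 and 192 in Mdr2-KO livers, without overlap. It was at least 2.40-fold lower in Mdr2-KO livers, where the dim group is set at the lowest signal that counts as well above background (adjusted p = 0.924 for the measured difference of -2.01, limma). The first probe (A_68_P23470073, chr5:8899514-8899567) was not well above background in either channel on any array. Its input signal was 172, 145 and 88.4 in Mdr2-/+ livers and 46.8, 60.4 and 49.5 in Mdr2-KO livers. The median of the 1036 negative control spots was 41.0 to 57.8 on these arrays, so the Mdr2-KO values were at the level of the controls, and no fold is given.

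**Figure D2:**
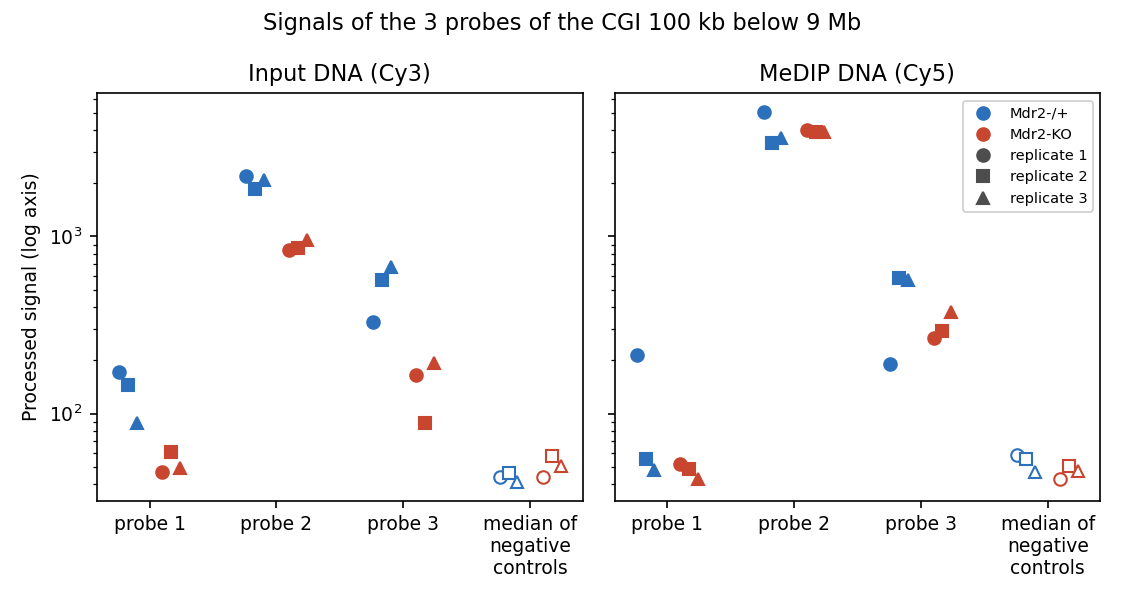
Processed input (left) and MeDIP (right) signals, on a log axis, of the 3 probes of the CGI 100 kb below 9 Mb, in order of position, beside the median of the negative control spots (open symbols). Each point is an array, and input signals of Mdr2-KO arrays lie below those of all Mdr2-/+ arrays at each of the 3 probes, while MeDIP signals of the middle probe overlap.

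No single probe of the array passed the test by input (0% of 88646 probes, and 0 of 597 members, where an unadjusted p under 0.05 was reached by 17 higher and 21 lower probes, against 1.67% and 2.87% of all probes). When probes with dim input were left out, 1 of 74933 probes was called, and it was the middle probe of this CGI (adjusted p = 0.0112, limma). The CGI itself then had fewer than 3 probes and was not tested. The call of the CGI by input also ended with normexp background correction, at a difference of -0.027 (adjusted p = 1.00), where the middle probe was at -0.55 (adjusted p = 0.941) and the other probes turned to 0.22 and 0.24. The ratio difference was then 0.096 (adjusted p = 0.819). With normexp no CGI of the whole array was called by input or by ratio, so the loss of these calls is not particular to this CGI. With the median over probes, the differences were -2.01 in input (adjusted p = 0.878) and 1.08 in ratio (adjusted p = 0.0860). Leaving out any of 4 arrays also ended the call by input. The input difference was then -1.55 and -1.64 without replicates 2 and 3 of the controls (adjusted p = 0.0679 and 0.124) and -1.61 and -1.56 without replicates 1 and 2 of the mutants (adjusted p = 0.107 and 0.0517). Leaving out the same arrays ended the call of the ratio, with differences of 0.97, 0.98, 1.07 and 0.96 (adjusted p = 0.0772, 0.0794, 0.0908 and 0.0786).

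The 5 other CGIs nearest 9 Mb, given whatever their values, were not called by input, MeDIP signal or ratio. The nearest of all, chr5:9002910-9003535 (6 probes, 2.91 kb above 9 Mb), had slightly higher input values in Mdr2-KO livers. Its input signal was 0.25, 0.28 and 0.24 in Mdr2-/+ livers and 0.37, 0.36 and 0.38 in Mdr2-KO livers. These values did not overlap, but the difference was 0.11 (standard error 0.042, adjusted p = 0.93, limma). Its MeDIP signal was 0.20, 0.20 and 0.11 in Mdr2-/+ livers and -0.11, -0.21 and -0.09 in Mdr2-KO livers. These values did not overlap either, with a difference of -0.31 (adjusted p = 0.125, limma). Its ratio was -0.20, -0.21 and -0.24 in Mdr2-/+ livers and -0.54, -0.67 and -0.52 in Mdr2-KO livers, also without overlap. The ratio difference was -0.36 (standard error 0.11, adjusted p = 0.108, limma). It was called lower in ratio with quantile normalization (-0.38, adjusted p = 0.0369) and turned to 0.060 with normexp background correction.

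The CGI at chr5:8918662-8919115 (3 probes, 81.3 kb below 9 Mb) lies closest to the one with low input. Its ratio was high in every liver, 2.75, 2.23 and 2.04 in Mdr2-/+ livers and 2.49, 2.45 and 2.47 in Mdr2-KO livers, and the genotypes overlapped. Its input difference was -0.15 (standard error 0.076, adjusted p = 0.93, limma). This CGI begins 18.5 kb above the end of the called one, and no input call was made there. At chr5:8804225-8804696, chr5:9106425-9107519 and chr5:9167573-9167901, the ratio differences were -0.31, 0.007 and -0.19, and the input differences 0.13, 0.054 and 0.002.

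**Figure D3:**
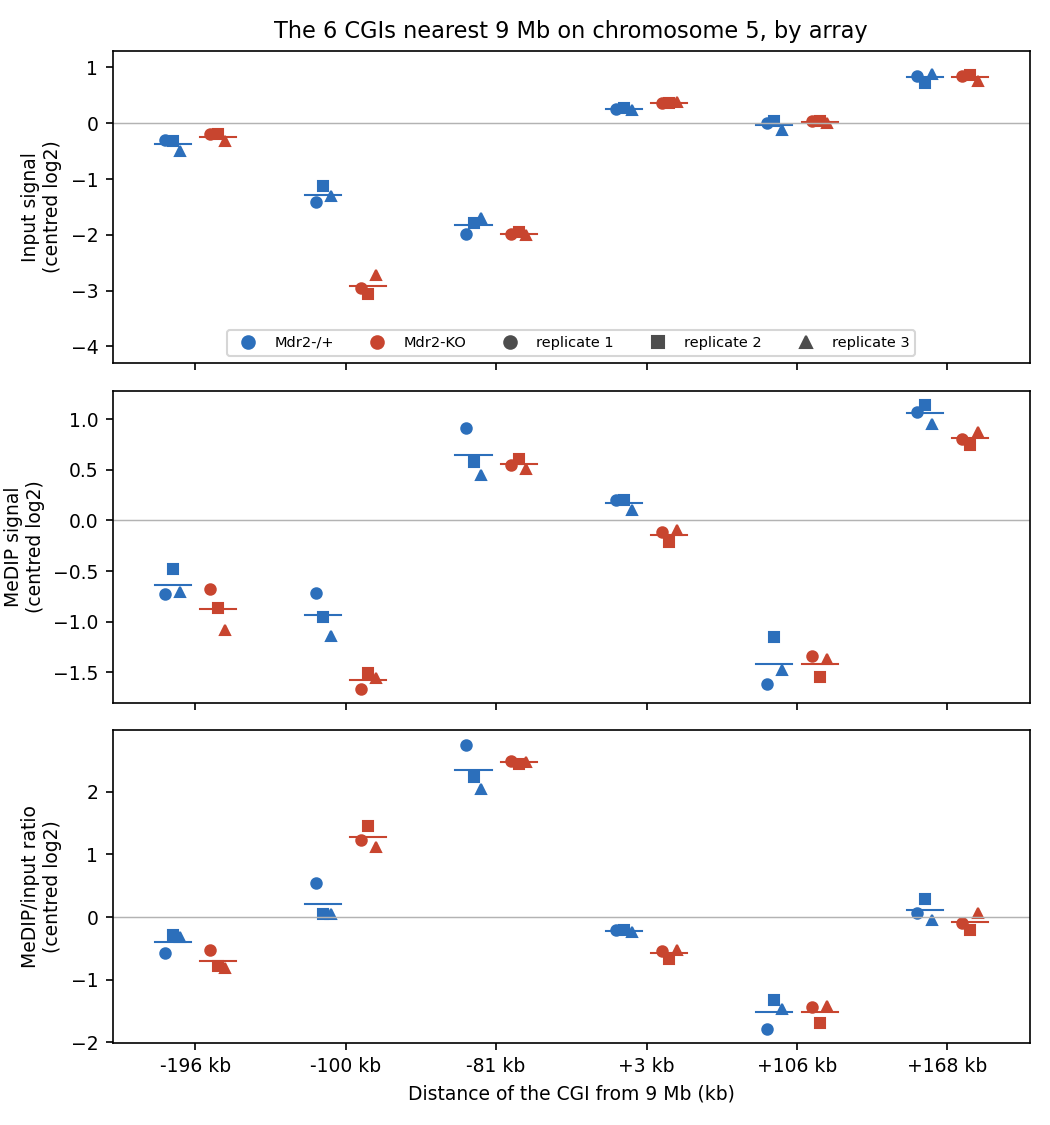
Centred log2 input signal, MeDIP signal and MeDIP/input ratio of the 6 CGIs nearest 9 Mb, ordered by their distance from 9 Mb (kb). Each point is an array and each line the mean of a genotype (n = 3). At the CGI at -100 kb all 3 measures separate, with input and MeDIP signal lower and the ratio higher in Mdr2-KO livers. At the CGI 2.91 kb above 9 Mb they separate by less, with input higher and MeDIP signal and ratio lower, and none was called.

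All 12 CGIs within 1 Mb of 9 Mb had a lower mean MeDIP signal in Mdr2-KO livers, with a median difference of -0.23. Over all CGIs the share below 0 was 61.9% and the median -0.076. On the slide that held both genotypes, the median MeDIP difference of the 12 CGIs was -0.29. Between arrays of the same genotype it was -0.14 (Mdr2-/+ replicate 3 minus 2) and 0.035 (Mdr2-KO replicate 3 minus 2). Of these 12 CGIs, 3 had MeDIP values that did not overlap and were lower in Mdr2-KO livers, near the 20.3% of all CGIs, and 1 was called. In the ratio, 9 of the 12 were below 0, against 49.6% of all CGIs, with a median of -0.099, beside 0.017 in the rest of chromosome 5. Without the CGI of low input, the ratio differences of the other 11 ran from -0.36 to 0.13, and none was called. CGIs within 1 Mb were not tested as a group.

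The spread of the input differences near 9 Mb rested on a single CGI. Within 1 Mb the SD of the input difference over CGIs was 0.475, beside 0.085 in the rest of chromosome 5, and it was 0.094 without that CGI. The median input difference was -0.005 between 2.5 and 5 Mb, -0.0004 between 5 and 10 Mb and 0.004 beyond 10 Mb. Between 1 and 2.5 Mb there was only 1 CGI, at -0.24.

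Of the 96 CGIs, 9 had input values that did not overlap and were higher in Mdr2-KO livers, against 3.66% of all CGIs, and 5 had input values that were lower, against 6.02%. The 4 largest of the higher ones that did not overlap, none of them called, lay far from 9 Mb. At chr5:25215525-25216060 the input signal was -1.67, -1.62 and -1.57 in Mdr2-/+ livers and -1.30, -1.48 and -1.14 in Mdr2-KO livers, a difference of 0.32. The other 3, at chr5:17086150-17086740, chr5:3602041-3602762 and chr5:29526384-29527183, differed by 0.19, 0.17 and 0.12. All 4 had an adjusted p of 0.93 (limma), and these differences were smaller in size than the -1.63 at the CGI 100.5 kb below 9 Mb. After that CGI, the lowest input difference was -0.29 at chr5:23992515-23992773, named after its values were seen. Its input values did not overlap and were not called (adjusted p = 0.93, limma). There too the ratio was higher in Mdr2-KO livers, by 0.80 without overlap, and was not called (adjusted p = 0.0905, limma).

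Of the single probes with a higher input in Mdr2-KO livers, the 4 largest that did not overlap had an adjusted p of 0.924 (limma). Of these, A_68_P23445969 alone was well above background in input on all 6 arrays, with a difference of 0.64. A_68_P23544557 was well above background in all Mdr2-KO livers and in no Mdr2-/+ liver and was at least 1.36-fold higher. A_68_P23561117 was well above background in 1 Mdr2-KO liver and in no Mdr2-/+ liver, and A_68_P23506428 was above background in no liver. No fold is given for either. On the lower side, beside the 3 probes of the CGI called by input, the largest measured difference was -0.75 at A_68_P23542141 (adjusted p = 0.924, limma). Its input was well above background in 2 of 3 Mdr2-/+ livers and in no Mdr2-KO liver, so no fold is given.

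By the ratio, 3 of the 96 CGIs (3.125%) were called higher in Mdr2-KO livers, against 4.28% of all CGIs, and 0 lower, against 0.21%. An unadjusted p under 0.05 in the same limma fit was reached by 17 higher and 3 lower CGIs, against 14.8% and 5.51% of all CGIs. Values did not overlap at 22 higher and 7 lower CGIs, against 15.9% and 10.8% of all CGIs. Over single probes, 5 of 597 were called higher and 0 lower by ratio, against 1.89% and 0.122% of all probes. With quantile normalization, 11 CGIs were called higher and 2 lower, against 7.16% and 2.75% of all CGIs.

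The 3 called CGIs fall into different kinds. One is the CGI called by input, where the input fell. The other two lie 8.87 and 9.74 Mb above 9 Mb and had no input difference. At chr5:17871457-17872694 (8 probes) the ratio was -0.44, -0.44 and -0.53 in Mdr2-/+ livers and 0.23, 0.96 and 0.25 in Mdr2-KO livers, a rise of 0.95 (standard error 0.20, adjusted p = 0.0383, limma). The input difference was -0.015 and the MeDIP difference 0.87 (adjusted p = 0.0710). Mdr2-KO replicate 2 was well above its group here, and without it the rise was 0.71 (adjusted p = 0.0530).

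At chr5:18739119-18739576 (5 probes) the ratio was -0.96, -1.02 and -0.75 in Mdr2-/+ livers and -0.25, -0.0018 and -0.42 in Mdr2-KO livers, a rise of 0.68 (standard error 0.15, adjusted p = 0.0403, limma). The input difference was 0.014, and the MeDIP signal rose by 0.64 (adjusted p = 0.0468), the single member called higher in MeDIP signal. The neighbouring CGI chr5:18738295-18738586, named after its values were seen, had ratios of 0.65, 0.36 and 0.34 in Mdr2-/+ livers and 1.06, 1.37 and 0.86 in Mdr2-KO livers. It differed by 0.64 and was not called (adjusted p = 0.0664). Within the slide that held both genotypes, the differences at the called CGIs were 0.67 and 0.70, in order of position.

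Both calls were close to the threshold. Leaving out any array except Mdr2-/+ replicate 1 ended them. At chr5:17871457-17872694 the differences without Mdr2-/+ replicates 2 and 3 and Mdr2-KO replicates 1, 2 and 3 were 0.97, 0.92, 1.08, 0.71 and 1.06 (adjusted p = 0.121, 0.136, 0.100, 0.0530 and 0.0582). At chr5:18739119-18739576 they were 0.63, 0.77, 0.70, 0.57 and 0.78 (adjusted p = 0.151, 0.0962, 0.142, 0.134 and 0.0522). With normexp background correction, the differences were 0.31 and 0.34 and neither was called, as was true of every CGI of the array. With slide as a random block the differences were 0.92 and 0.69 (adjusted p = 0.0580 and 0.0558, limma). Loess within arrays ended only the call at chr5:18739119-18739576 (0.49, adjusted p = 0.0749, limma). Leaving out dim probes ended only the call at chr5:17871457-17872694 (0.79, adjusted p = 0.0582, limma).

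**Figure D4:**
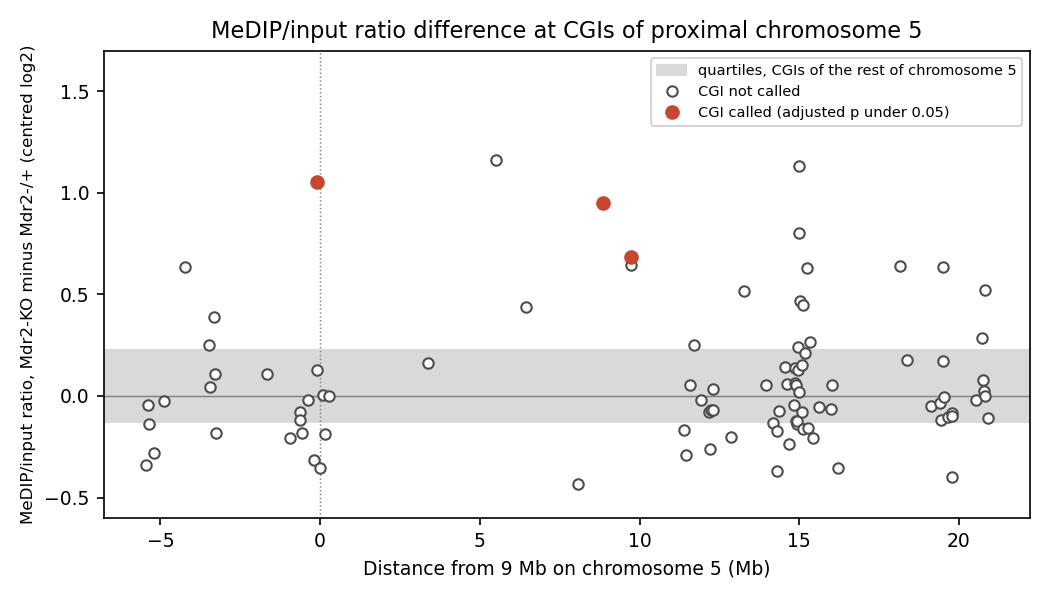
Difference of the MeDIP/input ratio (Mdr2-KO minus Mdr2-/+, centred log2) of the 96 CGIs against their distance from 9 Mb (Mb). Each point is a CGI and the grey band spans the quartiles of the rest of chromosome 5, and the 3 called CGIs lie 0.1 Mb below and 8.87 and 9.74 Mb above 9 Mb.

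Ratio differences were spread widest between 5 and 10 Mb from 9 Mb, where 2 of the 3 calls lie. The SD over these 10 CGIs was 0.58, beside 0.34 in the rest of chromosome 5, and 5 of the 10 had values that did not overlap and were higher in Mdr2-KO livers, against 15.9% of all CGIs. The other 5 had negative differences, 1 of them without overlap. All CGIs of this bin below 9 Mb were among these, with -0.34, -0.05, -0.14 and -0.28 in order of position. Above 9 Mb only chr5:17086150-17086740 was negative, at -0.43. The median difference between 5 and 10 Mb was 0.20, and in the bin from 2.5 to 5 Mb it was 0.14. Arrays of the same genotype were also compared between 5 and 10 Mb. For Mdr2-KO replicate 3 minus 2 the SD was 0.54, beside 0.30 in the rest of chromosome 5. For Mdr2-/+ replicate 3 minus 2 it was 0.20, beside 0.24. On the slide that held both genotypes (Mdr2-KO minus Mdr2-/+) the SD was 0.38, beside 0.37. For that pair the scaled median absolute deviation was 0.47, beside 0.31, and the median 0.34, beside -0.047. The cause of the wide spread was not tested. Beyond 10 Mb, where most of the CGIs lie, the median was -0.017 with 0 of 65 called. The largest difference in the whole stretch, 1.16 at chr5:14521007-14521647, was not called (adjusted p = 0.0879, limma). Its ratio was -0.98, -1.12 and -1.20 in Mdr2-/+ livers and -0.34, 0.91 and -0.40 in Mdr2-KO livers, with Mdr2-KO replicate 2 again far above the others.

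Ratios lower in Mdr2-KO livers were small and not called. The 4 largest that did not overlap were -0.37 at chr5:23293258-23293897, -0.36 at the CGI 2.91 kb above 9 Mb, -0.35 at chr5:25215525-25216060 and -0.28 at chr5:3808521-3809692. At the first, the ratio was 0.45, 0.26 and 0.53 in Mdr2-/+ livers and 0.19, -0.21 and 0.17 in Mdr2-KO livers, and the MeDIP signal differed by -0.49 (adjusted p = 0.0741). At chr5:25215525-25216060 the lower ratio came with the higher input described above, while the MeDIP signal differed by -0.099. A higher ratio with a lower input, neither overlapping between genotypes, was found at 3 of the 96 CGIs and at 190 of all 13822.

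The median ratio over the 96 CGIs was -0.24 (quartiles -0.67 and 0.083), beside -0.085 in the rest of chromosome 5 and -0.12 over all CGIs. The ratio was below 0 in every liver at 47 CGIs and above 1 in every liver at 9. The highest was at chr5:21187533-21187901, with 6.22, 5.12 and 5.08 in Mdr2-/+ livers and 5.50, 5.42 and 5.26 in Mdr2-KO livers. The CGI at chr5:23984333-23985339 had a ratio of 5.67, 4.46 and 4.36 against 4.84, 4.89 and 4.81. Neither showed a difference past the test, and the genotypes overlapped at both.

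At all 9 CGIs of high ratio, Mdr2-/+ replicate 1 was the highest of its group. Its log2 ratios over all probes also had the widest spread of the 6 arrays (SD 1.83, beside 1.52 to 1.75), and its part in the results was not tested beyond leaving it out. Close to the second of these, at chr5:23995173-23995411, the same array stood apart from its group. The ratio was 4.68, 3.42 and 3.23 in Mdr2-/+ livers and 4.87, 5.02 and 4.83 in Mdr2-KO livers, a difference of 1.13 that was not called (adjusted p = 0.108, limma). Without Mdr2-/+ replicate 1, 17 of the 96 CGIs were called higher and 1 lower, against 19.1% and 2.37% of all CGIs in that fit, and without any other array at most 1 was called.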

How the data were processed

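DNA from the livers of 6 males was measured on Agilent mouse CpG island arrays with probe positions in mm8. The deposited scanner files hold intensity values per spot. The authors' Agilent Feature Extraction (8.5.1.1 per the submitters' processing notes, 10.5.1.1 per the file headers) had subtracted background and corrected dye. Log2 values of the processed signals and of their ratio were centred on each array's median over probes. A probe was dropped where the scanner software marked its spot as an outlier on 1 or more arrays. Genotypes were compared with limma 3.58.1 (lmFit and eBayes, R 4.3.3) across all CGIs or all probes, with Benjamini-Hochberg adjustment and a threshold of 0.05. The test was checked on simulated data. A table of the authors' deposited values, whose scale is not stated (used as a score), was an alternative. It lists 446 of the 597 member probes, 397 of them with all 6 values.

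The 6 CGIs nearest 9 Mb were named whatever their values. Otherwise the features with the largest called differences in each direction that did not overlap were named, up to 8, or up to 4 not called where there were none. The members, lists and tests were chosen with earlier results of these data known. Same-numbered replicates correlated at 0.114, -0.0938 and 0.120 in their deviations from the group means and were not treated as pairs. No genome or annotation of mm8 was used here.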

Additional observations from a re-analysis of the deposited data

How the results depend on the processing

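Counts of CGIs called higher by ratio (3), lower by ratio (0) and by input (1), and of probes called by input (0), changed as follows. With normexp background correction 0 were called higher and 0 by input, and over the whole array also 0 CGIs were called by either measure. The lost calls are therefore not particular to this stretch. Normexp was run on the median spot signals and their background with an offset of 50, not on the processed signals. After normexp the SD of the log2 ratios ran from 0.51 to 1.16 between arrays. With quantile normalization 11 were called higher and 2 lower. Loess within arrays gave 2 higher, where 399 CGIs of the whole array were called higher. Leaving out dim probes gave 0 CGIs and 1 probe by input. Probe gaps of at most 250 bp, the median over probes and the replicate block each gave 0 CGIs by input, the first because the CGI 100.5 kb below 9 Mb was split. With the replicate block 2 CGIs were called higher and 0 probes by input. With slide as a fixed block 0 were called higher and 0 by input, and with slide as a random block 1 was called higher. The methods' t-test gave 13 higher, 2 lower, 10 by input and 26 probes by input unadjusted, and 0 higher and 0 by input after adjustment. The authors' deposited values, with 10519 CGIs tested, gave 10 higher and 3 lower among 74 CGIs of the stretch. These were without the CGI 100.5 kb below 9 Mb, of which they list a single probe. Shares over all CGIs under the t-test and the authors' values are not given here, so these counts are not read as particular to this stretch. Within 5 Mb of 9 Mb, 1 was called higher. Leaving out 1 array at a time gave 0 to 17 higher, 0 to 1 lower, 0 to 1 by input and 0 to 0 probes by input. The cause of these changes was otherwise not tested.

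Of 486 recomputed differences of named features, 35 changed sign. No sign changed for the input and ratio of the CGI 100.5 kb below 9 Mb or for the ratios of the other called CGIs. In ratio, normexp gave 0.060 at chr5:9002910-9003535, 0.305 at chr5:9167573-9167901 and 0.064 at chr5:3808521-3809692. At chr5:8918662-8919115 the ratio difference was -0.169 with quantile normalization, -0.263 with slide as a fixed block and -0.023 without Mdr2-/+ replicate 3. At chr5:9106425-9107519 it was -0.050 with quantile normalization, -0.063 without dim probes, and -0.123, -0.033 and -0.041 without Mdr2-/+ replicate 1, Mdr2-KO replicate 1 and Mdr2-KO replicate 3. At chr5:8804225-8804696 it was 0.049 with slide as a fixed block. In input, normexp gave 0.22 and 0.24 at the outer probes of the CGI 100.5 kb below 9 Mb, 0.248 at A_68_P23542141, 0.105 at chr5:8918662-8919115, -0.118 at chr5:9167573-9167901, 0.00036 at chr5:17871457-17872694 and -0.040 at chr5:18739119-18739576. The median over probes gave -0.00031 at chr5:8804225-8804696, -0.101 at chr5:9167573-9167901, 0.0077 at chr5:17871457-17872694 and -0.013 at chr5:18739119-18739576. Slide as a fixed block gave 0.0018 at chr5:8918662-8919115, -0.0034 at chr5:9167573-9167901, 0.059 at chr5:17871457-17872694 and -0.0066 at chr5:18739119-18739576. Input at chr5:17871457-17872694 was 0.0022 with quantile normalization, 0.0076 without dim probes, and 0.013 and 0.0022 without Mdr2-/+ replicate 3 and Mdr2-KO replicate 3. Input at chr5:9167573-9167901 was -0.049, -0.012 and -0.017 without Mdr2-/+ replicate 2, Mdr2-KO replicate 1 and Mdr2-KO replicate 2. Input at chr5:18739119-18739576 was -0.010 without Mdr2-KO replicate 3. Over the 6 fits that each left out 1 array, the ratio difference ran from -0.023 to 0.330 at chr5:8918662-8919115 and from -0.123 to 0.108 at chr5:9106425-9107519. The input difference ran from -0.049 to 0.035 at chr5:9167573-9167901, from -0.056 to 0.013 at chr5:17871457-17872694 and from -0.010 to 0.032 at chr5:18739119-18739576. None of these differences passed the test.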
